A study of Mus musculus with 8 samples.

Results

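The core of the PI3K, AKT and mTOR pathway was defined as 8 genes, *Igf1r*, *Pik3ca*, *Akt1*, *Akt2*, *Tsc1*, *Tsc2*, *Rheb* and *Mtor*, which were looked up by Entrez identifier among the 21950 genes of the read count table. For 7 of them a row was found, and *Tsc2* was not analysed here. All 7 were followed across 4 libraries of d6PGCLCs, germ cell-like cells made in culture, and 4 libraries of E12.5 PGCs, the germ cell precursors of the embryo. The study compared both cell types at the start of its *in vitro* and *in vivo* routes to oocytes. The d6PGCLCs came from 1 female mouse iPSC line, BVSC-iPSC, that carries the reporters Blimp1-Venus and Stella-ECFP. They were induced with BMP4, SCF, LIF and EGF and sorted for both reporters at day 8 of culture, which is day 6 of PGCLC induction. The E12.5 PGCs were sorted from female gonads of C57BL/6J embryos as cells positive for SSEA1 and integrin β3. Each library was a pool of cells from an independent experiment. Developmental stage, culture and sort differ together between the groups and cannot be told apart. Strain may differ with them, as the study's methods give none for BVSC-iPSC.

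IGF1R and other receptor tyrosine kinases recruit class I PI3K, of which PIK3CA is a catalytic subunit, and the lipid that PI3K makes brings AKT kinases to the membrane. AKT inhibits the complex of TSC1 and TSC2, which holds the small GTPase RHEB inactive, and active RHEB switches on the kinase mTOR to promote protein synthesis and growth. PGCs depend on signalling through the receptor KIT, which uses this route. Transcript levels give the amounts of RNA for these parts and not the activity of the kinases.

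The libraries held between 8054596 and 12024841 counted reads in d6PGCLCs and between 7991437 and 11166023 in E12.5 PGCs. Levels are given as CPM, for which each library total was scaled with TMM. A count of 3 in a library corresponded to 0.249 to 0.383 CPM, a limit that covers counting error only. The 8 germ cell markers summed to between 3272 and 3858 CPM in d6PGCLCs and to between 4027 and 4484 CPM in E12.5 PGCs, and each of them was detected in both groups. These sums join opposite differences, since *Dppa3*, *Prdm1*, *Tfap2c* and *Pou5f1* were higher in d6PGCLCs, and *Dnd1* and the later germ cell genes *Ddx4* (35.5 against 760 CPM) and *Dazl* (37.7 against 1262 CPM) lower (edgeR). The 7 markers of gonadal somatic cells summed to at most 13.6 CPM in d6PGCLCs and to at most 7.16 CPM in E12.5 PGCs. The 4 markers of blood and endothelium summed to 19.9 to 34.6 CPM and 14.4 to 23.8 CPM, with *Ptprc* at 0 in all E12.5 PGC libraries, and the 6 markers of other embryoid body lineages to 1.91 to 5.11 CPM and 30.2 to 33.4 CPM, with *Sox1* at 0 in all d6PGCLC libraries. Most of this higher sum in E12.5 PGCs lay in *Pax6* (2.61 against 20.2 CPM) and *Hand1* (0.548 against 8.26 CPM). A pair of E12.5 PGC libraries stood apart. In replicate 2 the 10 genes of the dissociation response summed to 1116 CPM, against 475 to 557 CPM in the others of this group, and in replicate 4 the 4 Y-linked genes summed to 4.78 CPM, against 0 in every other library.

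Of the 7 core genes, *Akt2* alone passed the test, edgeR's quasi-likelihood test with Benjamini-Hochberg adjustment over all genes and a threshold of 0.05. *Akt2* rose 1.44-fold in d6PGCLCs, and the estimated log2 differences of the other 6 genes lay between -0.22 and 0.10. Of all genes tested, 31.5% passed this threshold, 16.1% of them higher and 15.4% lower in d6PGCLCs as shares of all genes. Among the 9247 genes that averaged 50 counts or more per library, as did all 7 core genes, the share was 54.0%, beside which 1 of 7 stands at 14.3%. With an offset for exonic length, described further on, 4 of 7 core genes passed (57.1%), beside 57.5% of the 9247 genes in the same fit, so the low share is not firm. No core gene reached the absolute log2 fold change of 2 that the study required in addition, which 6.62% of all genes did. The median absolute log2 difference was 0.15 over the core genes and 0.38 over the 9247 genes. In bulk libraries a lower level can come from fewer cells of a type or from less RNA per cell, which cannot be told apart. That the samples are pools from separate experiments is the basis of the error used in these tests.

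**Figure D1:**
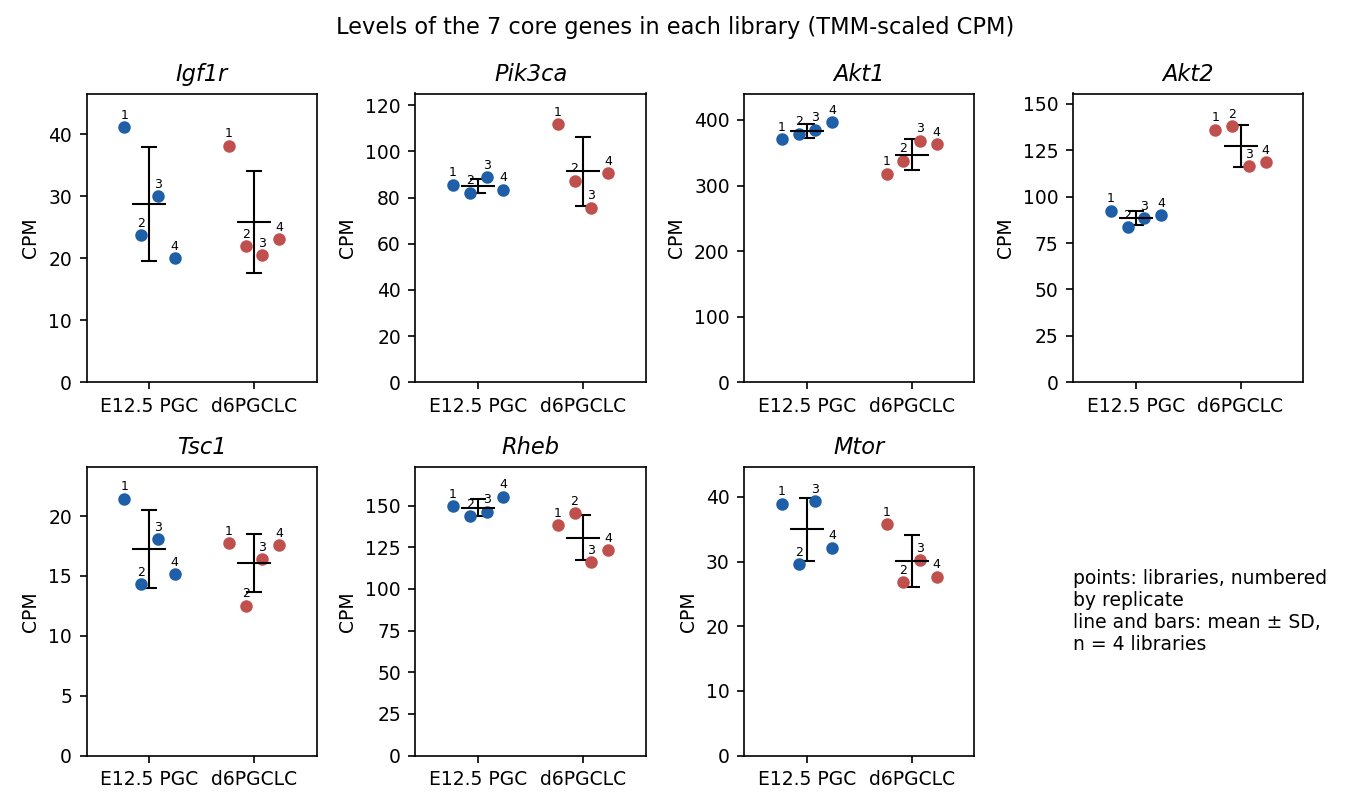
Levels of the 7 core genes in CPM (vertical axes from 0) in each of 4 E12.5 PGC and 4 d6PGCLC libraries, drawn as points numbered by replicate, with the mean and SD of each group as a line and bars. The points of *Akt2* lie between 83.6 and 92.5 CPM in E12.5 PGCs and between 116 and 138 CPM in d6PGCLCs, the widest separation of the 7 panels.

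*Igf1r* encodes the receptor for insulin-like growth factors (Entrez 16001, chr7:67952257-68233668, GRCm38). It was measured at 38.2, 22.0, 20.5 and 23.0 CPM in d6PGCLC replicates 1 to 4 and at 41.2, 23.7, 30.1 and 20.0 CPM in E12.5 PGC replicates 1 to 4. Replicate 1 was the highest of each group and the groups overlapped over almost their whole range. The means were 25.9 ± 8.23 CPM and 28.7 ± 9.27 CPM (SD, n = 4 each), a coefficient of variation of 31.8% and 32.3%. The log2 fold change was -0.15 (SE 0.21, 95% interval -0.58 to 0.28) with an adjusted p of 0.744 in edgeR's quasi-likelihood test. Without E12.5 PGC replicate 1 it was 0.07.

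*Pik3ca* encodes the alpha catalytic subunit of class I PI3K (Entrez 18706, chr3:32397065-32466112). Its levels were 112, 87.3, 75.7 and 90.4 CPM in d6PGCLCs and 85.6, 82.2, 88.7 and 83.4 CPM in E12.5 PGCs. All 4 E12.5 PGC values lay inside the range of the d6PGCLC libraries, which was set by replicate 1 at the top and replicate 3 at the bottom. With means of 91.3 ± 15.1 CPM and 85.0 ± 2.86 CPM (SD, n = 4 each), the log2 fold change was 0.10 (SE 0.11, 95% interval -0.13 to 0.33, adjusted p = 0.607, edgeR). Without d6PGCLC replicate 1 it was -0.01.

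*Akt1* and *Akt2* encode kinases with overlapping substrates, which act on signals from PI3K. *Akt1* (Entrez 11651, chr12:112653821-112674884) was measured at 318, 338, 369 and 363 CPM in d6PGCLCs and at 371, 379, 385 and 396 CPM in E12.5 PGCs. Every d6PGCLC library lay below every E12.5 PGC library, although replicate 3 of the former and replicate 1 of the latter were nearly equal. The means of 347 ± 23.4 CPM and 383 ± 10.7 CPM (SD, n = 4 each) gave a log2 fold change of -0.14 (SE 0.08, 95% interval -0.31 to 0.03), which did not pass the test (adjusted p = 0.230, edgeR).

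*Akt2* (Entrez 11652, chr7:27591552-27640826) was measured at 136, 138, 116 and 119 CPM in d6PGCLCs and at 92.5, 83.6, 88.4 and 90.1 CPM in E12.5 PGCs. The lowest d6PGCLC library exceeded the highest E12.5 PGC library by more than the spread within either group. The means were 127 ± 11.4 CPM and 88.6 ± 3.76 CPM (SD, n = 4 each), and *Akt2* rose by 0.52 on the log2 scale (SE 0.10, 95% interval 0.32 to 0.72, adjusted p = 0.000154, edgeR's quasi-likelihood test). Over 20 alternative settings the log2 fold change of *Akt2* lay between 0.47 and 0.56 and its adjusted p between 3.70e-07 and 0.00432, so the call held in each of them. *Akt1* and *Akt2* were the core genes without overlap between the groups, 2 of 7, whereas 51.6% of the 9247 genes at 50 counts or more showed none.

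*Tsc1* encodes hamartin, which stabilizes TSC2 (Entrez 64930, chr2:28640993-28691172). It was low, at 17.74, 12.52, 16.43 and 17.58 CPM in d6PGCLCs and at 21.46, 14.31, 18.07 and 15.16 CPM in E12.5 PGCs, with replicate 2 the lowest of each group. The groups overlapped, and the log2 fold change of -0.10 (SE 0.17, 95% interval -0.45 to 0.25) had an adjusted p of 0.839 in edgeR. Without E12.5 PGC replicate 1 it was 0.02. *Rheb* (Entrez 19744, chr5:24802823-24842361) was measured at 138, 146, 116 and 123 CPM in d6PGCLCs and at 150, 144, 146 and 155 CPM in E12.5 PGCs. Of the d6PGCLC libraries, replicate 2 alone reached into the E12.5 PGC range. The means of 131 ± 13.6 CPM and 149 ± 5.02 CPM (SD, n = 4 each) differed by -0.19 on the log2 scale (SE 0.09, 95% interval -0.38 to 0.01, adjusted p = 0.155, edgeR).

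*Mtor* encodes the kinase shared by the complexes mTORC1 and mTORC2 (Entrez 56717, chr4:148448582-148557685). Its levels were 35.7, 26.8, 30.2 and 27.6 CPM in d6PGCLCs and 38.9, 29.6, 39.3 and 32.1 CPM in E12.5 PGCs. Replicates 1 and 3 were the highest of each group, and the groups overlapped. The means were 30.1 ± 4.04 CPM and 34.98 ± 4.88 CPM (SD, n = 4 each), with a log2 fold change of -0.22 (SE 0.14, 95% interval -0.51 to 0.07, adjusted p = 0.286, edgeR). Reads of *Mtor* were counted on 1248 bp, 14.6% of the 8564 bp of its longest annotated coding transcript, so the value describes only that portion of the gene.

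Without both E12.5 PGC libraries that stood apart, *Akt2* was still the core gene that passed (0.49, adjusted p = 0.00432, edgeR). The estimates for *Igf1r* (-0.46, adjusted p = 0.121), *Tsc1* (-0.30, adjusted p = 0.379) and *Mtor* (-0.38, adjusted p = 0.113) were then farther below 0, none of them past the threshold.

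The differences of *Igf1r*, *Pik3ca*, *Akt1* and *Rheb* depended on whether the exonic length counted was taken into account. The deviation of a library from the mean of all libraries changed with exonic length to a degree that differed between libraries. Slopes (log2, per unit of log10 length) ran from -0.33 in d6PGCLC replicate 2 to 0.33 in E12.5 PGC replicate 1. Almost no trend was seen in d6PGCLC replicate 4 (-0.002) and E12.5 PGC replicate 4 (0.008). *Igf1r*, counted on 12818 bp and the longest of the 7, was highest in E12.5 PGC replicate 1 and d6PGCLC replicate 1, the libraries with the steepest positive slopes (0.33 and 0.16). With an offset for this trend, the log2 fold change of *Igf1r* was 0.12 instead of -0.15, with an adjusted p of 0.722 (edgeR). With the same offset 3 further core genes passed the test in edgeR. *Pik3ca* was then higher in d6PGCLCs (0.28, adjusted p = 0.0286), and *Akt1* (-0.20, adjusted p = 0.0384) and *Rheb* (-0.29, adjusted p = 0.0140) were lower, while *Akt2* remained higher (0.48). *Tsc1* (-0.12) and *Mtor* (-0.30) kept their direction and again did not pass the test. Whether the trend arose in the preparation of the libraries was not tested.

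**Figure D2:**
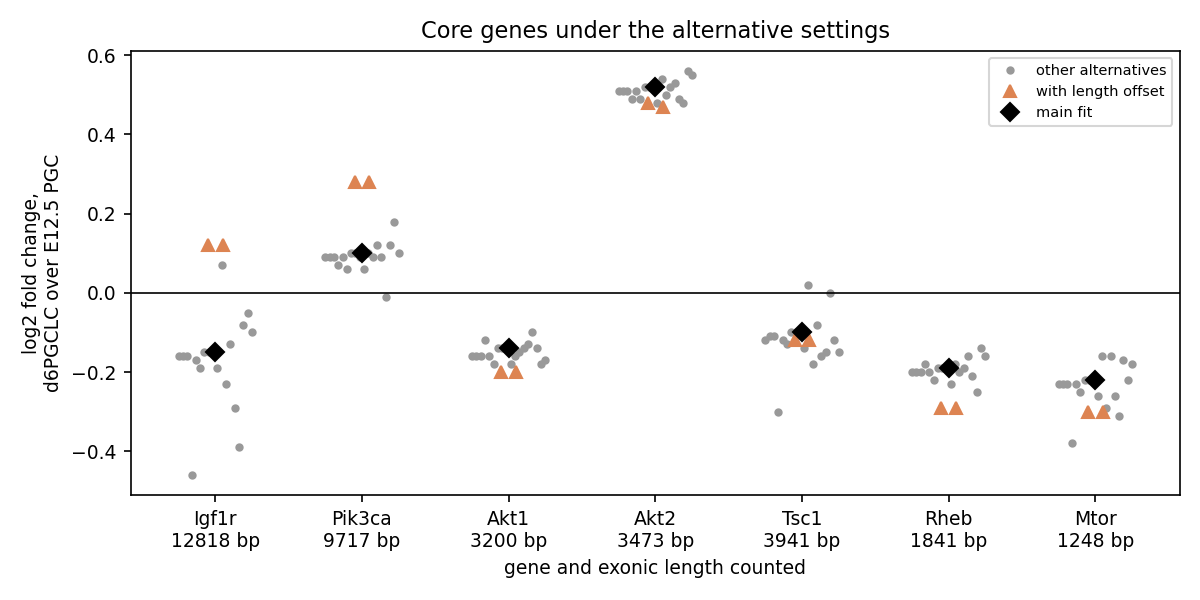
Log2 fold change (vertical axis, d6PGCLC over E12.5 PGC) of each core gene, labelled with its counted exonic length, in the fit reported here (black diamonds), with the offset for exonic length (orange triangles) and in the other alternative settings (grey points). *Akt2* stays between 0.47 and 0.56, whereas *Igf1r*, *Pik3ca* and *Tsc1* have values on both sides of 0.

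Levels of different genes were compared as RPKM, the CPM divided by the exonic length counted in kb. In d6PGCLCs the order was *Akt1* (108 ± 7.31 RPKM), *Rheb* (71.1 ± 7.36), *Akt2* (36.7 ± 3.27), *Mtor* (24.1 ± 3.24), *Pik3ca* (9.40 ± 1.56), *Tsc1* (4.08 ± 0.618) and *Igf1r* (2.02 ± 0.642; SD, n = 4), and no neighbours in this order overlapped. In E12.5 PGCs *Akt1* (120 ± 3.34 RPKM) and *Rheb* (80.8 ± 2.73) again led. *Mtor* (28.0 ± 3.91 RPKM) and *Akt2* (25.5 ± 1.08) overlapped there, followed by *Pik3ca* (8.74 ± 0.294), *Tsc1* (4.38 ± 0.821) and *Igf1r* (2.24 ± 0.723). *Mtor* and *Tsc1* (3941 of 7702 bp) were counted on a short portion of their longest transcript, which makes their rank uncertain.

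Of the summed level of *Akt1* and *Akt2* per kilobase, *Akt1* made up the larger portion in both groups, with 74.7% ± 2.91 in d6PGCLCs and 82.4% ± 0.765 in E12.5 PGCs (SD, n = 4 each). The share of *Akt2* was 22.5 to 28.3% in d6PGCLCs and 16.9 to 18.7% in E12.5 PGCs. The sum of both genes was 145.1 ± 4.54 RPKM and 145.2 ± 3.46 RPKM.

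Ratios of paralogs or partners within a library, which do not depend on its scaling, were tested with a two-sided exact permutation test over the 8 libraries. The ratio of *Akt1* to *Akt2* was 2.54, 2.65, 3.44 and 3.32 in d6PGCLCs and 4.36, 4.92, 4.73 and 4.78 in E12.5 PGCs. It was lower in all 4 d6PGCLC libraries than in any E12.5 PGC library, with a log2 difference of -0.66 and an exact permutation p of 0.0286. The ratio of *Pik3ca* to *Pik3cb*, the beta catalytic subunit, was 0.285, 0.257, 0.222 and 0.227 in d6PGCLCs and 0.384, 0.461, 0.501 and 0.428 in E12.5 PGCs. It was likewise lower without overlap (log2 difference -0.84, exact permutation p = 0.0286). This p is the smallest that 4 against 4 libraries allow, and after Benjamini-Hochberg adjustment over the 4 ratios computed both stood at 0.0571, above the threshold. The ratio of *Igf1r* to the insulin receptor *Insr* overlapped between the groups (log2 difference -0.32, exact permutation p = 0.143, adjusted p = 0.190). With the offset for exonic length its log2 difference was 0.04. The ratio of *Rptor* to *Rictor* overlapped as well (0.04, exact permutation p = 0.83), at -0.07 to 0.14 with 1 library left out. *Insr* (1861 of 9355 bp) and *Rictor* (3350 of 9312 bp) were counted on a short portion of their longest coding transcript, which these ratios describe.

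**Figure D3:**
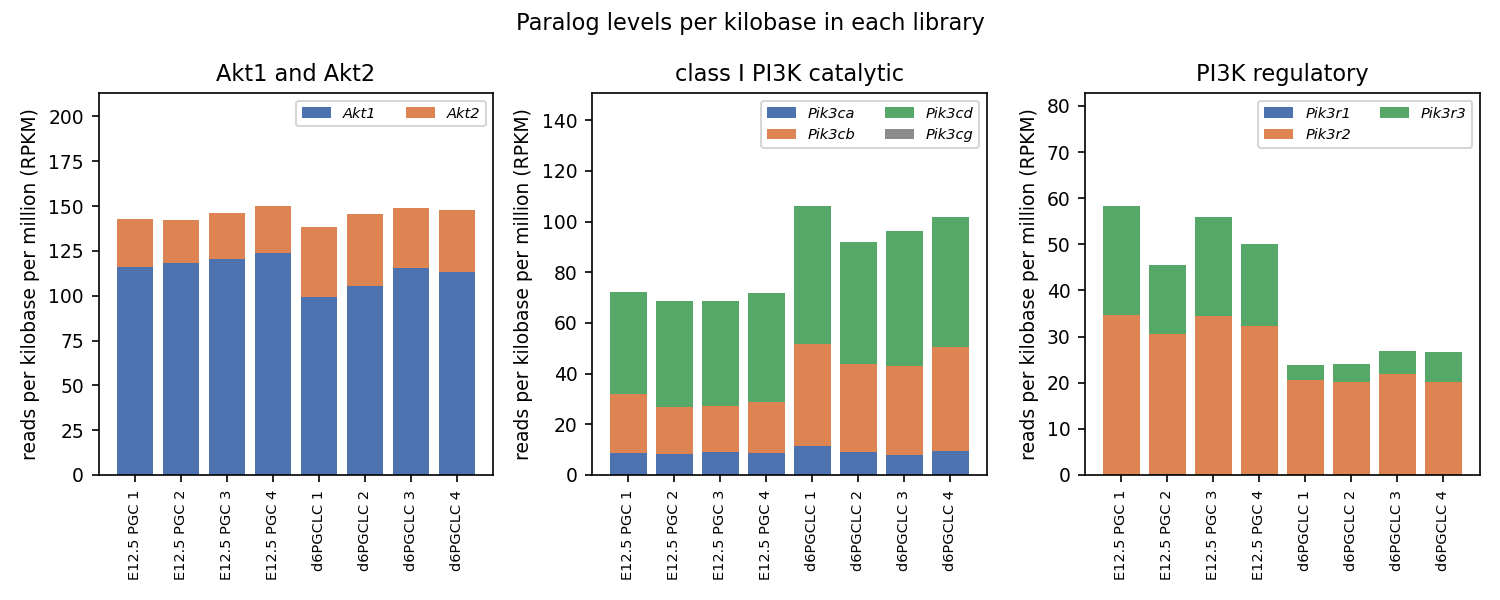
RPKM per library (stacked bars from 0, 4 E12.5 PGC libraries at left and 4 d6PGCLC libraries at right) for *Akt1* and *Akt2* and for the class I PI3K catalytic and PI3K regulatory subunits. The totals of *Akt1* and *Akt2* are 139 to 149 RPKM in d6PGCLCs and 143 to 149.8 RPKM in E12.5 PGCs, the catalytic totals 91.9 to 106 and 68.5 to 72.4 RPKM, and the regulatory totals 23.8 to 26.8 and 45.6 to 58.3 RPKM.

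Around the core, 74 of 78 listed genes of the pathway had a row, and 21 of them were higher and 15 lower in d6PGCLCs. Among those that averaged 50 counts or more 31 of 55 passed (56.4%), a share near the 54.0% of all such genes. These included 1 of 3 ligands and binding proteins, 2 of 4 receptors and adaptors, 4 of 4 PI3K subunits and 1 of 3 antagonists. They also included 2 of 6 AKT activator and substrate genes, 2 of 7 mTOR complex subunits and 4 of 5 energy and stress inputs. The median log2 difference over the 74 genes was 0.04, and over all genes 0.00. Of all genes 6.62% also reached an absolute log2 fold change of 2. Of the 74, 5 did so, *Igfbp2*, *Grb10*, *Pik3r3*, *Rragd* and *Pdgfra*. The last 2 rest on a mean of 0.25 counts in d6PGCLCs each. The count was 2 without d6PGCLC replicate 1, 2 without E12.5 PGC replicate 1 and 3 without d6PGCLC replicate 2.

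Of 9 ligands and IGF-binding proteins, 1 was higher and 1 lower. *Igfbp2*, a secreted protein that binds IGFs, was measured at 90.2, 52.5, 40.7 and 39.4 CPM in d6PGCLCs and at 10.7, 14.7, 14.4 and 13.9 CPM in E12.5 PGCs, and rose by 2.04 on the log2 scale (SE 0.21, adjusted p = 1.04e-07, edgeR). *Igf2*, a ligand of IGF1R, ranged from 25.3 to 84.7 CPM in d6PGCLCs and from 46.5 to 65.5 CPM in E12.5 PGCs (log2 fold change -0.18, adjusted p = 0.710, edgeR), and stood at 0.03 without d6PGCLC replicate 1 and at -0.58 (adjusted p = 0.0130) without replicate 4. *Kitl*, the KIT ligand, was lower in d6PGCLCs, with 0.713 to 1.33 CPM against 2.00 to 3.37 CPM (-1.57, SE 0.36, adjusted p = 0.00109, edgeR). *Kitl* was itself 1 of the 7 gonadal somatic markers. Of the other 6, *Wt1* (0.451 to 1.68 CPM in E12.5 PGCs and at most 0.255 CPM in d6PGCLCs, adjusted p = 0.00171) and *Gata4* (0.722 to 1.12 and at most 0.255 CPM, adjusted p = 0.00134) were lower in d6PGCLCs as well (edgeR), *Nr5a1*, *Amhr2* and *Cyp11a1* did not pass, and *Col1a1* was higher. *Col1a1* was at 0.766, 3.87, 0.249 and 11.76 CPM in d6PGCLCs and at 0.0903 to 0.421 CPM in E12.5 PGCs, with overlap between the groups. The part of gonadal somatic cells in the difference of *Kitl* was not tested.

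Of 10 receptors and adaptors, 4 were higher and 1 lower. *Kit* was abundant in both groups, at 462 to 513 CPM in d6PGCLCs and 376 to 466 CPM in E12.5 PGCs. It did not pass the test (0.19, SE 0.09, adjusted p = 0.113, edgeR). With a block for replicate number it passed (0.19, adjusted p = 0.0439), but not with the length offset added (0.14, adjusted p = 0.186, edgeR). *Insr* was near 5 CPM in both (5.56 ± 1.71 and 4.83 ± 1.12 CPM; adjusted p = 0.675, edgeR). *Igf2r*, which binds IGF2 and carries it to lysosomes, rose by 0.52 (SE 0.09, adjusted p = 0.000143), with 725 CPM in d6PGCLC replicate 1, 567 to 579 CPM in the other d6PGCLC libraries and 397 to 460 CPM in E12.5 PGCs. The insulin receptor substrates *Irs1* (2.34 to 4.49 against 1.01 to 1.79 CPM; 1.40, adjusted p = 0.00147) and *Irs2* (6.11 to 13.8 against 3.78 to 6.74 CPM; 0.93, adjusted p = 0.00903) rose, with overlap between the groups in *Irs2* (edgeR). The adaptor *Grb10* also rose (2.51, SE 0.59, adjusted p = 0.000924, edgeR), from 0.0903 to 0.749 CPM in E12.5 PGCs to 1.08 to 5.11 CPM in d6PGCLCs, a mean of 13.8 counts per library over both groups. *Grb10* (906 of 5061 bp) and *Insr* (1861 of 9355 bp) were counted on a short portion of their longest coding transcript, which their values describe.

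Of 6 further subunits of PI3K, 2 were higher and 2 lower, and *Pik3cg* and *Pik3r1*, with under 1 CPM in every library, did not pass the test. The catalytic *Pik3cb* was measured at 235, 203, 204 and 239 CPM in d6PGCLCs and at 134, 107, 106 and 117 CPM in E12.5 PGCs, and rose by 0.93 (SE 0.10, adjusted p = 1.57e-07, edgeR). *Pik3cd*, the delta catalytic subunit, rose from 237 to 252 CPM in E12.5 PGCs to 280 to 316 CPM in d6PGCLCs (0.31, SE 0.08, adjusted p = 0.00510, edgeR). Per kilobase *Pik3cd* led, with 52.3% ± 2.18 of the catalytic total in d6PGCLCs and 59.3% ± 2.15 in E12.5 PGCs, while *Pik3ca* made up 9.46% ± 1.16 and 12.4% ± 0.586. Of the regulatory subunits, *Pik3r3* and *Pik3r2* fell. *Pik3r3* was at 17.6, 20.7, 27.05 and 35.03 CPM in d6PGCLCs and at 128, 81.2, 116 and 96.7 CPM in E12.5 PGCs (-2.07, SE 0.17, adjusted p = 4.49e-09, edgeR). *Pik3r2* was at 76.8 to 82.7 CPM and 115 to 132 CPM (-0.67, SE 0.09, adjusted p = 5.71e-06, edgeR). Summed per kilobase, catalytic subunits stood at 99.0 ± 6.24 and 70.4 ± 2.03 RPKM and regulatory subunits at 25.3 ± 1.65 and 52.5 ± 5.75 RPKM in d6PGCLCs and E12.5 PGCs (SD, n = 4 each). *Pik3r1* was counted on 2790 of the 7113 bp of its longest coding transcript, so its part in the regulatory sum is uncertain.

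Of 5 antagonists of the PI3K lipid signal and of AKT, 1 was higher and 0 lower. *Inpp5d*, which encodes the phosphatase SHIP known from blood cells, rose by 1.30 (SE 0.17, adjusted p = 2.20e-06, edgeR), from 90.2 to 101 CPM to between 159 and 351 CPM. *Ptprc*, which marks blood cells, was at 0.102 CPM in d6PGCLC replicate 2 and at 0 in every other library. Its value describes only the 1154 bp counted, and the blood markers *Hba-a1* and *Hbb-bt* were not analysed here. The part of blood cells in the difference of *Inpp5d* was not tested. Of the endothelial markers, *Cdh5* was higher in d6PGCLCs (6.64 to 16.5 against 3.37 to 5.89 CPM, adjusted p = 0.000193, edgeR), and *Tek* and *Kdr* did not pass.

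Of 6 genes for the AKT activator and AKT substrates, 1 was higher and 1 lower. *Pdpk1*, which phosphorylates AKT, was at 14.6 ± 3.05 and 15.5 ± 1.29 CPM (adjusted p = 0.889, edgeR). AKT keeps the FOXO transcription factors out of the nucleus, and of the 3 measured *Foxo3* did not pass the test (80.4 ± 14.95 and 76.1 ± 10.6 CPM, log2 fold change 0.08, adjusted p = 0.832, edgeR, and -0.02 without d6PGCLC replicate 1). *Foxo3* was counted on 2694 of the 6848 bp of its longest coding transcript, which its values describe. *Foxo4* rose 2.30-fold (SE of the log2 value 0.10, adjusted p = 4.60e-09, edgeR), from 53.3 to 60.0 CPM to between 118 and 147 CPM. *Foxo1* fell by 0.40 (SE 0.13, adjusted p = 0.0201, edgeR), with 129 to 203 CPM against 168 to 240 CPM, a call that was lost without E12.5 PGC replicate 1 (-0.30, adjusted p = 0.0839) and without d6PGCLC replicate 2 (-0.36, adjusted p = 0.0538), 3 (-0.32, adjusted p = 0.0735) or 4 (-0.36, adjusted p = 0.0539). Neither of the 2 further TSC and RHEB partners passed the test. *Tbc1d7*, a subunit of the TSC complex, was at 22.5 to 27.6 CPM in d6PGCLCs and at 22.9 to 24.8 CPM in E12.5 PGCs (0.10, adjusted p = 0.744, edgeR), and stood at -0.01 with the offset for length. *Rhebl1*, a paralog of *Rheb*, was at 59.6, 81.9, 83.7 and 80.0 CPM and at 56.6, 69.9, 61.9 and 69.1 CPM (0.25, adjusted p = 0.132, edgeR), and at 0.35 (adjusted p = 0.00896) without d6PGCLC replicate 1, the lowest of its group.

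**Figure D4:**
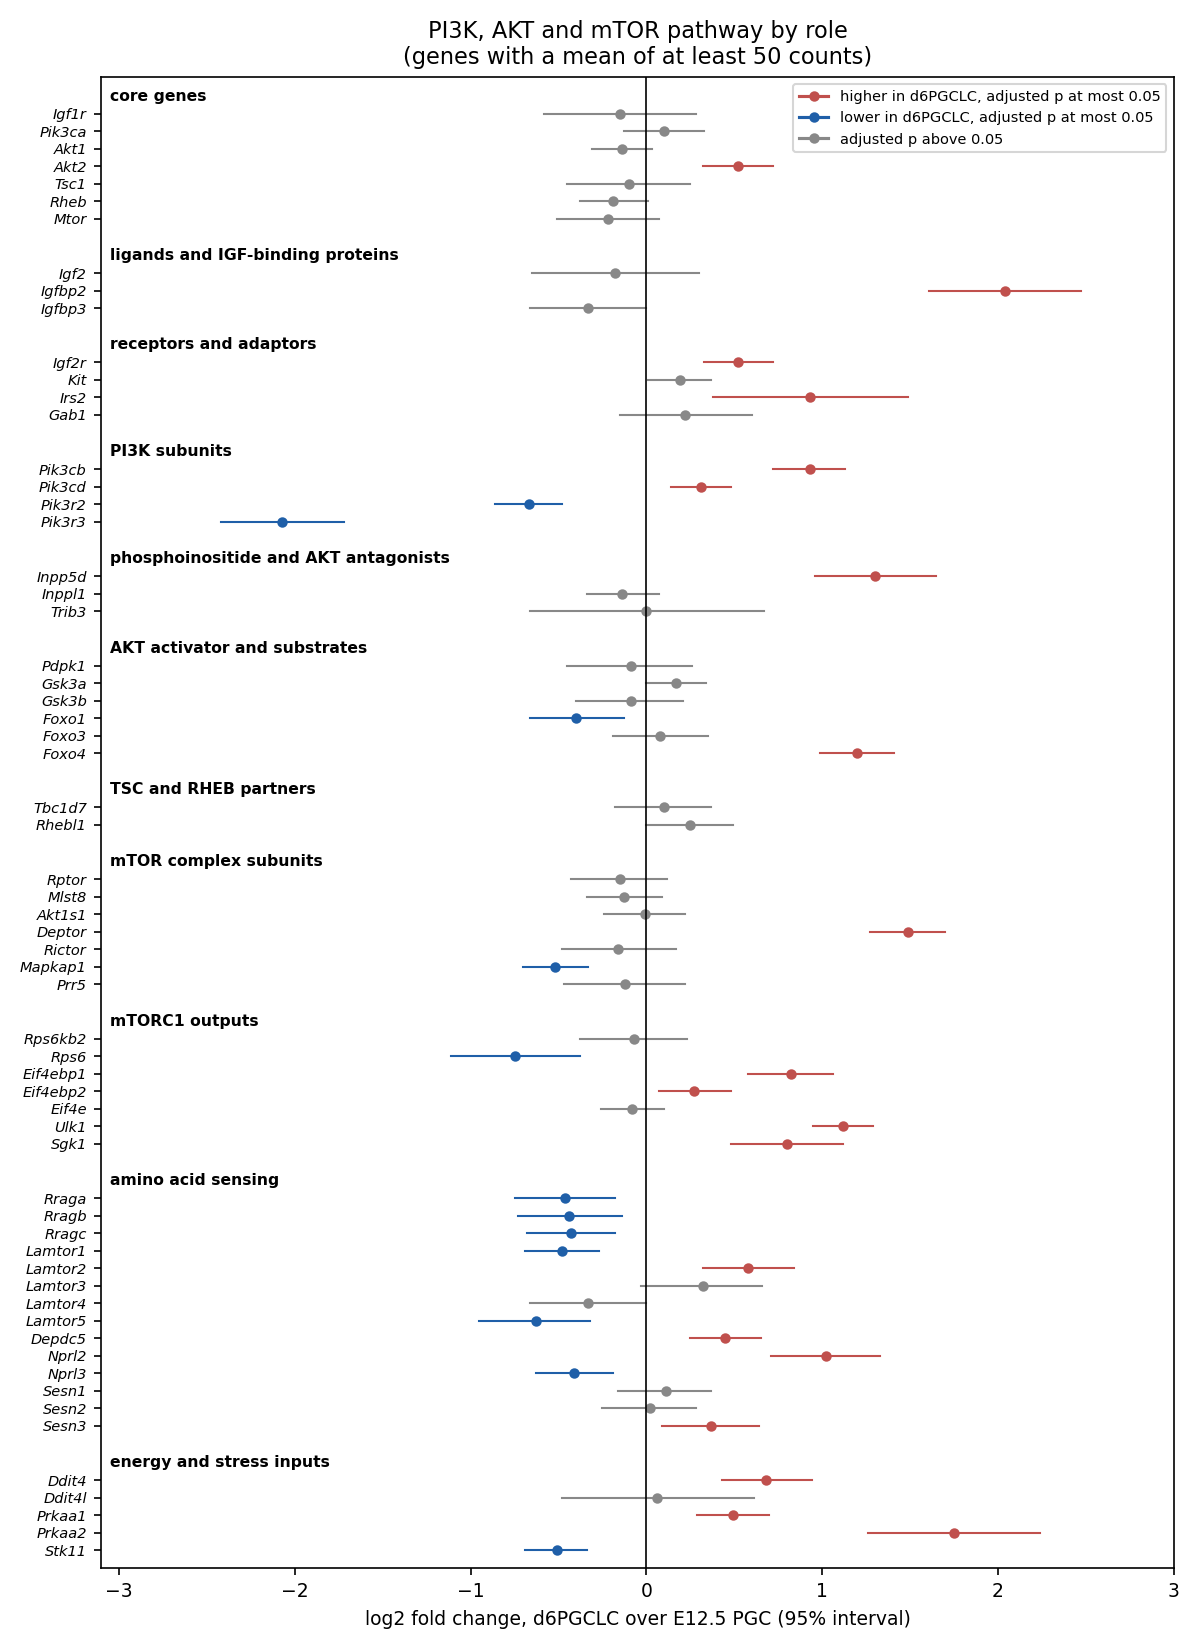
Log2 fold change (horizontal axis, d6PGCLC over E12.5 PGC) with its 95% interval for the 7 core genes and the 55 pathway genes that averaged 50 counts or more, by role, in red where higher and in blue where lower at an adjusted p of at most 0.05 in edgeR and in grey otherwise. The core holds 1 coloured point of 7 (*Akt2*, 0.52), and *Pik3r3* (-2.07) and *Igfbp2* (2.04) lie farthest from 0.

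Of 8 subunits of the mTOR complexes, 1 was higher and 1 lower. *Deptor*, an inhibitor that binds mTOR, was at 320.0, 254.8, 226.8 and 234.1 CPM in d6PGCLCs and at 96.3, 86.7, 93.8 and 92.6 CPM in E12.5 PGCs, and rose by 1.49 (SE 0.10, adjusted p = 4.14e-10, edgeR). *Mapkap1*, which encodes the mTORC2 subunit SIN1, fell by 0.52 (SE 0.09, adjusted p = 9.07e-05, edgeR). *Rptor* and *Rictor*, which encode the defining subunits of mTORC1 and mTORC2, had log2 differences of -0.15 (adjusted p = 0.484) and -0.16 (adjusted p = 0.558, edgeR), near the -0.22 of *Mtor*. Without d6PGCLC replicate 2 the difference of *Rictor* was 0.01. *Rictor* was counted on 3350 of the 9312 bp of its longest coding transcript, which its values describe. Of 8 outputs of mTORC1 and related kinases, 4 were higher and 1 lower. At 50 counts or more 5 of 7 passed (71.4%), beside 54.0% of all such genes. *Ulk1*, a kinase that starts autophagy, rose from 418 to 457 CPM in E12.5 PGCs to 889 to 1029 CPM in d6PGCLCs (1.12, SE 0.08, adjusted p = 8.81e-10, edgeR). *Eif4ebp1*, a repressor of translation that mTORC1 inactivates, rose by 0.82 (SE 0.12, adjusted p = 8.22e-06, edgeR). *Sgk1*, a kinase downstream of mTORC2, rose by 0.80 (SE 0.15, adjusted p = 0.000297, edgeR). *Rps6* was the gene that fell, by 0.75 (SE 0.18, adjusted p = 0.00185, edgeR), with 8.42 to 13.2 CPM against 15.1 to 20.8 CPM. These values describe only reads with a unique position on the 1594 bp counted. The call of *Rps6* was not followed under the alternative settings or the length offset.

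Of 15 genes for the sensing of amino acids at the lysosome, 4 were higher and 7 lower. Among those that averaged 50 counts or more 10 of 14 passed (71.4%), beside 54.0% of all such genes. The Rag GTPases *Rraga* (-0.46, adjusted p = 0.0107) and *Rragc* (-0.43, adjusted p = 0.00816) and their anchors *Lamtor1* (-0.48, adjusted p = 0.000670) and *Lamtor5* (-0.63, adjusted p = 0.00195) fell, whereas the anchor *Lamtor2* rose (0.58, adjusted p = 0.000739, edgeR). Of the genes for the subunits of GATOR1, the complex that inactivates the Rag GTPases, *Nprl2* (1.02, adjusted p = 1.16e-05) and *Depdc5* (0.45, adjusted p = 0.000688) rose and *Nprl3* fell (-0.41, adjusted p = 0.00417, edgeR). When both E12.5 PGC libraries that stood apart were left out, *Rraga* (-0.45, adjusted p = 0.0503) and *Rragc* (-0.36, adjusted p = 0.0776) no longer passed. Of 5 inputs from energy and stress, 3 were higher and 1 lower. *Ddit4*, a stress-induced inhibitor of mTORC1, rose by 0.68 (SE 0.12, adjusted p = 0.000120, edgeR), from 132 to 157 CPM to between 170 and 291 CPM. The dissociation response sum stood at 406 to 492 CPM in d6PGCLCs and 475 to 1116 CPM in E12.5 PGCs, and joins opposite differences. *Junb* was higher in d6PGCLCs (37.0 to 48.4 against 9.96 to 16.2 CPM, adjusted p = 7.45e-09, edgeR). *Fos*, *Jun*, *Egr1*, *Atf3*, *Dusp1*, *Hspa1a* and *Hspa1b* were lower, and *Ier2* and *Fosb* did not pass. The highest sum, in E12.5 PGC replicate 2, held *Jun* at 156, *Hspa1a* at 144 and *Hspa1b* at 181 CPM. The part of dissociation in the difference of *Ddit4* was not tested. The AMPK catalytic subunits *Prkaa1* (0.49, adjusted p = 0.000388) and *Prkaa2* (1.75, adjusted p = 3.64e-06) rose, and *Stk11*, whose product LKB1 activates AMPK, fell by 0.51 (adjusted p = 5.77e-05, edgeR).

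The pattern of each core gene over the 8 libraries was compared with that of the others. Between core genes the highest Pearson correlations of log2(CPM + 0.1) were 0.782 for *Igf1r* with *Mtor* and 0.753 for *Tsc1* with *Mtor*, and the closest core gene to *Akt1*, *Rheb*, reached 0.206. Among 8128 genes that averaged 100 counts or more, the most similar to each core gene were *Glud1* to *Akt2* (0.997), *Zc3h7b* to *Mtor* (0.995), *Arhgdia* to *Akt1* (0.994), *Anxa6* to *Rheb* (0.981), *Pias1* to *Tsc1* (0.971), *Cyp51* to *Pik3ca* (0.947) and *R3hdm2* to *Igf1r* (0.943). *Glud1* shared the direction of *Akt2* between the groups (log2 fold change 0.65). These values describe 8 points that share the group difference and the length trend, and each is the highest of a search.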

How the data were processed

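The deposited values are raw counts per gene of reads with a unique position, with the exonic length counted. The authors aligned single-end poly(A) reads with STAR to GRCm38 and counted reads with QuasR on an isoform drawn at random for each gene, after removing genes with overlapping promoters at random. This affects levels per kilobase, and whether strand was used is not given in the sources used here. Entrez identifiers were matched to RefSeq (21907 of 21950), which also gave coordinates. Transcript lengths came from GENCODE.

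Counts were fitted in R 4.3.3 with edgeR 4.0.16 (TMM, quasi-likelihood test, prior count 0.125, no filter), with cell type as the only term. The study's methods give edgeR with cell type and a log-likelihood test. Benjamini-Hochberg adjustment covered all genes, and RPKM are TMM-scaled CPM per kb. Steps were tested on simulated data. As alternatives, DESeq2 1.42.0, the likelihood ratio test, other scalings and filters, a prior count of 2, a replicate block, an offset for exonic length (loess, span 0.5), and leaving out libraries were tried. The block combined with the length offset was chosen after seeing the data.

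Core genes, gene lists, alternatives and tests were chosen with earlier results of these data known. Named pathway genes were, per role, the 3 largest changes among called genes that averaged 50 counts or more, plus *Insr*, *Kit*, *Rptor*, *Rictor*, *Pdpk1* and *Pik3cb*, and for each core gene the most similar gene. *Igf2*, *Kitl*, *Irs1*, *Grb10*, *Pik3cd*, *Pik3cg*, *Pik3r1*, *Foxo3*, *Tbc1d7*, *Rhebl1*, *Rps6*, *Rraga*, *Rragc*, *Lamtor1*, *Nprl3*, *Depdc5* and *Prkaa1* were added after their values were seen. The planned ratio of *Tsc1* to *Tsc2* was not computed, so adjustment covered 4 ratios. *Phlpp1*, *Bad*, *Rps6kb1* and *Flcn* and the markers *Foxl2*, *Hba-a1*, *Hbb-bt* and *Gata6* were not analysed here. The pathway lists leave out 2 genes whose results are not reported here, and called genes not named in the text are included in its counts.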

Additional observations from a re-analysis of the deposited data

Results flagged for a closer look

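In 8 of 102 sets of 4 libraries, 1 library lay far from the other 3 by Dixon's criterion at the 95% level, where chance gives about 1 in 20, or 5.1. Of these, 1 was a core gene: *Igf1r* was at 38.2 CPM in d6PGCLC replicate 1 and at 20.5 to 23.0 CPM in the other d6PGCLC libraries. The same library stood apart for *Igf2r* (725 CPM, against 567 to 579), for *Mapkap1* (86.2 CPM, against 91.1 to 92.1), for *Depdc5* (151 CPM, against 130 to 134), for *Rhebl1* (59.6 CPM, against 80.0 to 83.7) and for *Lamtor1* (95.9 CPM, against 124 to 128). *Pik3r2* was at 82.7 CPM in d6PGCLC replicate 3 and at 76.8 to 77.7 CPM in the others. *Rragc* was at 92.5 CPM in E12.5 PGC replicate 2 and at 71.6 to 75.0 CPM in the others.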

How the results depend on the processing

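Of 140 values of the 7 core genes under 20 alternatives, 129 kept their direction and side of the threshold. With the length offset, alone or with the replicate block, 2 core genes were higher and 2 lower: *Pik3ca* 0.28, *Akt1* -0.20, *Rheb* -0.29 and *Akt2*; *Igf1r* was 0.12, *Tbc1d7* -0.01 and *Foxo3* 0.00 (-0.01 with the block). Leaving out 1 library in turn gave -0.39 to 0.07 for *Igf1r*, -0.01 to 0.18 for *Pik3ca*, -0.18 to 0.02 for *Tsc1*, -0.28 to 0.01 for *Rictor*, -0.19 to 0.04 for *Pdpk1*, -0.02 to 0.19 for *Foxo3* and -0.58 to 0.03 for *Igf2*; the cause was not tested. The difference between the groups in the log2 ratio of *Igf1r* to *Insr* was 0.04 with the length offset. That of *Rptor* to *Rictor* was -0.04, and the log2 fold change of *Foxo3* -0.05, without E12.5 PGC replicates 2 and 4; the difference in the former ratio was -0.07 to 0.14 with 1 library left out, where exact tests cannot go below 0.0571. The counts of pathway genes and of all genes higher or lower stayed within 1.5 times under every alternative. Those that also reached an absolute log2 fold change of 2, 5 pathway genes and 1452 of all genes, were 3 and 934 with CPM above 1 in at least 3 samples, 3 and 847 with filterByExpr, 3 and 832 with a prior count of 2, and 2 to 6 pathway genes with 1 library left out. Same-numbered libraries had correlations of 0.273, 0.104, -0.023 and 0.035, and not every library was closest to its own number. The value of 0.273, for replicates 1, was the highest of all pairs. Length slopes in E12.5 PGCs and d6PGCLCs shared their sign for replicates 1 (0.33 and 0.16) and 2 (-0.13 and -0.33), but not 3 (0.12 and -0.15). Whether same-numbered libraries shared a batch was not tested, and the main fit has no term for it. With the replicate block 59.4% of the 9247 genes passed, beside 54.0% without it. With the replicate block *Akt2* was 0.52 and 22 pathway genes were higher and 18 lower, *Kit* among the former (0.19, adjusted p = 0.0439, edgeR); for the ratios the paired test cannot reach the threshold. For *Igf1r* the spread between libraries (32.3% of the mean in E12.5 PGCs) limits what can be seen, and depth allows no statement on genes at or under 3 counts in every library.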
